A study of Mus musculus with 27 samples.

Results

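Microtubules are polymers of a heterodimer of alpha- and beta-tubulin, and mammals encode each subunit in a small family of near-identical genes. The 10 tubulin genes described here were 7 genes for beta-tubulin (Tubb3, Tubb2a, Tubb2b, Tubb4a, Tubb4b, Tubb5 and Tubb6) and 3 genes for alpha-tubulin (Tuba1a, Tuba1b and Tuba1c), out of 38123 genes in each deposited file. They were found by name, through the Ensembl identifiers of the files. The family was selected on measured values, namely the excess of its mRNA in cytoplasm over nucleus on day 0, in which Tubb3 led, so that contrast is described below without a test.

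The cells were mouse embryonic stem (ES) cells of the DTCM23/49 XY line, in which the RNase III domain of Dicer, the enzyme that cuts microRNA precursors, can be deleted by 4-hydroxytamoxifen (4-OHT, 800 nM). Poly(A) RNA was read in 27 libraries of 9 groups with 3 replicates each. The groups were whole cells on days 0, 4, 8, 10 and 12 after induction, and cytoplasm and nucleus on days 12 and 0, the day 0 cells being those before induction. All groups came from this line, carried the conditional Dicer alleles and grew in serum with leukemia inhibitory factor (LIF). Ethanol-treated cells were the control in the protocol, and no library after day 0 is labelled as one, so loss of Dicer cannot be told apart from the drug, from time in culture or from the selection and expansion of Dicer-deficient colonies.

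Different tubulin isotypes are used in different cells. Tubb5 and Tubb4b serve most dividing cells, Tubb2a, Tubb2b, Tubb3 and Tuba1a are the main isotypes of the developing nervous system, Tubb4a is abundant in myelinating glia and mature neurons, and Tubb6 is widespread at lower levels. Tuba1b and Tuba1c are the alpha genes of most proliferating cells. Cells also adjust tubulin mRNA to the supply of protein: when unassembled dimer is in excess, a factor reads the first residues of the nascent chain (TTC5 in human cells) and the mRNA is degraded while it is being translated.

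The start of the coding sequence is shown because it encodes that signal. In the lines that follow the first 4 codons are in capitals, and the sequences were read 5′ to 3′ from the GENCODE M21 transcripts of build GRCm38. The beta genes begin with Met-Arg-Glu-Ile. The codons for these residues differ among the beta genes shown, except that Tubb3 and Tubb4b have the same ones:
Tubb3: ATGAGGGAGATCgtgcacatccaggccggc
Tubb2a: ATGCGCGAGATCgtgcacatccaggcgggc
Tubb2b: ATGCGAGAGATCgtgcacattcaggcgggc
Tubb4a: ATGCGGGAAATCgtgcacctgcaagccggt
Tubb4b: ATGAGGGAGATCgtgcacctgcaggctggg
Tubb5: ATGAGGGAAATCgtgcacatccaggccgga
The alpha genes begin with Met-Arg-Glu-Cys, and Tuba1b and Tuba1c are identical over these 30 bases:
Tuba1a: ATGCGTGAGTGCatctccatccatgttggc
Tuba1b: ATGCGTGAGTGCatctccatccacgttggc
Tuba1c: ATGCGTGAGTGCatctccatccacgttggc
All 7 beta genes of the set encode the first signal and all 3 alpha genes the second.

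On GRCm38, Tubb2a (chr13:34074274-34078007) and Tubb2b (chr13:34126748-34130466) are neighbours on the minus strand, 48.7 kb apart. Tuba1b (chr15:98931425-98934565) and Tuba1a (chr15:98949837-98953703) lie 15.3 kb apart on the minus strand, and Tuba1c (chr15:99029891-99038110) lies 76.2 kb beyond Tuba1a on the plus strand. Tubb5 (chr17:35833921-35838306) and Tubb4a (chr17:57080066-57087782) share a chromosome, Tubb4b is at chr2:25222160-25224702, and all 3 are on the minus strand. Tubb3 is at chr8:123411424-123422015 on the plus strand, and Tubb6, also on the plus strand, lies apart from all of these.

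Their likeness limits what 100-base reads can separate. The coding sequences of the alpha genes were 97.1 to 98.3% identical in pairs, and those of Tubb2a and Tubb2b 96.5%, whereas every other beta pair was 80.2 to 86.0% identical. Of all 100-base windows of the transcript, 69.5% in Tuba1b, 65.1% in Tuba1a and 53.4% in Tuba1c also occurred in the transcript of another gene, many of them processed pseudogenes. The share was 36.9% in Tubb2a, 29.2% in Tubb4b and 27.8% in Tubb2b, and no window was shared in Tubb3, Tubb4a, Tubb5 or Tubb6. Levels of the alpha genes and of Tubb2a, Tubb2b and Tubb4b are therefore uncertain to the extent that the authors' counting split such reads. Tubb4b also overlaps Fam166a on the opposite strand over 5.8% of its exonic bases. On the same strand, the protein-coding Gm49450 overlaps 26.2% of the exonic bases of Tuba1a and 22.7% of those of Tuba1b. Gm49450 has no values in these data.

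Values are FPKM (fragments per kilobase of transcript, scaled to the mapped total of the library), which are per length and so allow levels to be compared between genes. The summed FPKM of a library was 275500 to 459900, and 12220 to 14020 genes reached 1 FPKM. Depth was not recorded in the files; the steps between low FPKM values gave relative depths of 3.05 to 3.61 in whole cells on day 0 and 0.722 to 1.80 in all other libraries. Dicer1, the targeted gene, was at 1.41 ± 0.462, 1.71 ± 0.173 and 1.83 ± 0.124 FPKM in whole cells on days 4, 8 and 10, against 16.3 ± 1.47 FPKM on day 0 (SD, n = 3). It was at 3.06 ± 0.366 FPKM in cytoplasm and 4.20 ± 1.11 FPKM in nucleus on day 12, against 22.5 ± 1.18 and 13.3 ± 4.75 FPKM in those fractions on day 0. The whole cell libraries labelled day 12 held Dicer1 at 14.6 ± 1.77 FPKM, close to day 0, which goes against their label, so they are called the libraries labelled day 12 throughout and are set apart from the day 12 fractions. Malat1, a nuclear RNA, stood at 17.4 FPKM in cytoplasm and 186 FPKM in nucleus on day 12, and at 16.4 and 286 FPKM on day 0. Nucleus day 0 replicate 3 and nucleus day 12 replicate 1 correlated least with their groups among the fraction libraries, and results that rest on them are given with and without them. All 10 ES cell markers averaged over 1 FPKM in every group, and they summed to 1182 to 5127 FPKM in single libraries, of which Dppa5a alone averaged 569 to 1952 FPKM. On day 10, 1 of them was higher and 3 were lower than on day 0 (27.7 and 16.0% of all genes). Among the lower ones was Lin28a, at 31.6 FPKM against 104 FPKM (-1.70 ± 0.07, limma adjusted p = 3.10e-09). Lin28a was at 15.1 FPKM in cytoplasm and 4.41 FPKM in nucleus on day 12, against 87.2 and 40.4 FPKM in those fractions on day 0.

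All 10 members passed the filter on low values in both fits, and the limma test described with the processing was adjusted over all 15991 genes of the whole cell fit. At day 0, whole cells held 762 ± 59.1 FPKM of Tubb5 (SD, n = 3), the highest member, followed by Tuba1b at 467, Tubb4b at 398 and Tuba1a at 358 FPKM. Tubb2b (144 FPKM), Tuba1c (123 FPKM), Tubb6 (81.4 FPKM) and Tubb3 (45.1 FPKM) came next, with Tubb2a at 14.7 and Tubb4a at 5.13 FPKM. At day 0 the lowest library of each gene lay above the highest library of the gene after it. Tubb5 and Tubb4b remained first and second among the beta genes in all 9 groups, and Tubb4a was the lowest member in all of them. By day 10 the order in the middle had closed up: Tuba1b (185 FPKM), Tubb2b (173 FPKM) and Tubb6 (158 FPKM) were neighbours whose libraries overlapped.

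**Figure D1:**
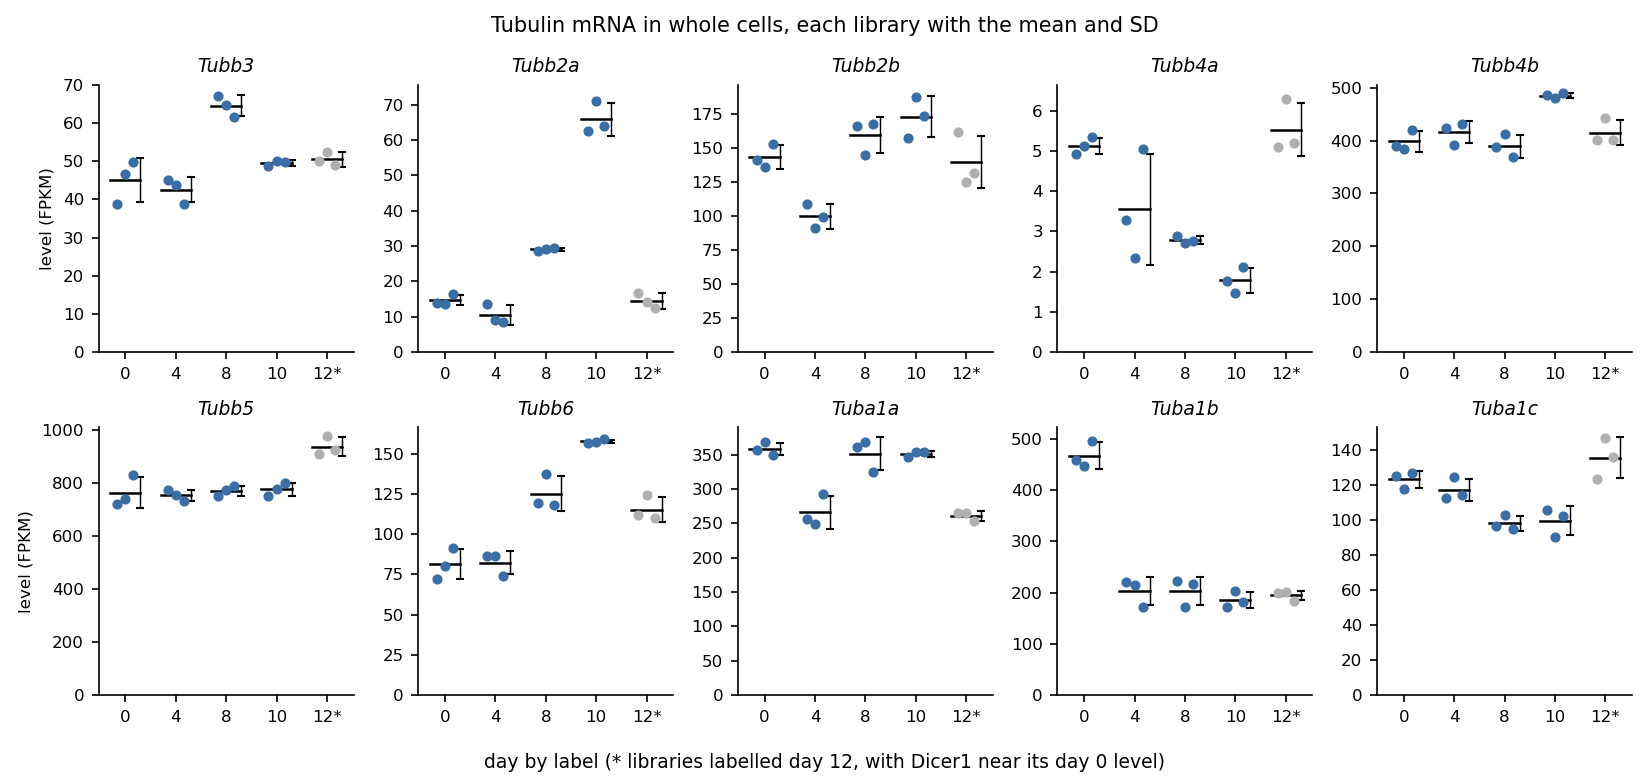
FPKM of each tubulin gene (one panel each, linear axis from 0) in whole cells by labelled day; dots are the 3 libraries of a day, lines their mean and bars the SD. Tubb2a is at 65.8 FPKM on day 10 and 14.7 FPKM on day 0, and Tuba1b is at 467 FPKM on day 0 and at 185 to 203 FPKM on every later day.

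Tubb2a and Tubb6 went up over the course while Tubb4a went down, and the most abundant member, Tubb5, did not pass the test on days 4, 8 or 10. On day 10, 3 members were higher than on day 0 (Tubb2a, Tubb6 and Tubb4b), against 27.7% of all genes tested, and 3 were lower (Tubb4a, Tuba1b and Tuba1c), against 16.0% of all genes. On day 8 the counts were again 3 higher (Tubb2a, Tubb6 and Tubb3; 20.2% of all genes) and 3 lower (Tubb4a, Tuba1b and Tuba1c; 9.62% of all genes). On day 4, no member was higher (4.88% of all genes) and 3 were lower (Tuba1b, Tubb2b and Tuba1a; 1.82% of all genes). The median log2 change of the 10 members was -0.26 on day 4, -0.01 on day 8 and 0.08 on day 10, beside 0.00, 0.06 and 0.09 over all genes, and these comparisons share the day 0 libraries. In bulk RNA, fewer cells that express a gene and less RNA per cell cannot be told apart. The balance of all calls depended on scaling: 72.8, 67.7 and 63.4% of the genes called on days 4, 8 and 10 were higher with FPKM as deposited, 70.5, 56.3 and 53.3% after median-of-ratios scaling, and 56.5, 45.9 and 44.4% after quantile normalization.

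Tubb2a, a beta isotype prominent in neurons, moved farthest. Its libraries held 13.9, 13.7 and 16.3 FPKM on day 0, then 13.7, 9.11 and 8.53 FPKM on day 4. They held 28.6, 29.3 and 29.4 FPKM on day 8 and 62.5, 71.1 and 64.0 FPKM on day 10. Every day 8 library lay above every library of days 0 and 4, and every day 10 library above every day 8 library. The log2 change on the log2(FPKM + 0.5) scale was 2.13 ± 0.15 (SE) on day 10 against day 0 (limma adjusted p = 2.53e-07) and 0.97 ± 0.15 on day 8 (limma adjusted p = 3.59e-04). Day 10 was also above day 8 (1.16 ± 0.15, limma adjusted p = 6.54e-04). Its neighbour and closest relative Tubb2b stood far above it on day 0, at 144 FPKM, and had no call on day 8 or day 10 against day 0.

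Tubb2b, mutated in a human disorder of cortical folding, dipped on day 4. The libraries held 141, 136 and 153 FPKM on day 0 and 109, 91.0 and 99.2 FPKM on day 4, a log2 change of -0.52 ± 0.11 (limma adjusted p = 0.00988). They were back at 166, 145 and 168 FPKM on day 8 and 157, 188 and 174 FPKM on day 10, where the change from day 0 did not pass (0.27 ± 0.11, limma adjusted p = 0.0665). Against day 4, both later days were higher, by 0.68 ± 0.11 (limma adjusted p = 0.00121) and 0.79 ± 0.11 (limma adjusted p = 1.29e-04). The day 4 call was lost when day 0 replicate 3 was left out (adjusted p = 0.0521 in limma) and in a fit of both groups alone (adjusted p = 0.0825). Summed, Tubb2a and Tubb2b came to 239 ± 19.5 FPKM on day 10 against 158 ± 10.3 FPKM on day 0 (SD, n = 3), a log2 change of 0.59 that passed (limma adjusted p = 7.15e-04), while on day 8 the summed pair did not pass (0.25, limma adjusted p = 0.0997).

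Tubb6, a beta isotype with no 100-base window in common with another gene, was higher on both later days. It was at 72.3, 80.6 and 91.4 FPKM on day 0 and 86.6, 86.6 and 74.0 FPKM on day 4, ranges that overlap. On day 8 it was at 120, 138 and 118 FPKM, and on day 10 at 157, 157 and 159 FPKM. Its log2 change was 0.62 ± 0.10 on day 8 (limma adjusted p = 3.95e-04) and 0.96 ± 0.10 on day 10 (limma adjusted p = 5.81e-06). Both calls held under every alternative tried, including the use of day 4 in place of day 0, which gave 0.60 and 0.94.

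Tubb4a, the isotype of oligodendrocytes and mature neurons, was the rarest member and fell. Libraries of day 0 held 4.92, 5.12 and 5.34 FPKM. Those of day 4 were scattered at 3.28, 2.33 and 5.05 FPKM, those of day 8 lay at 2.90, 2.71 and 2.77 FPKM, and those of day 10 at 1.76, 1.48 and 2.11 FPKM. Day 8 and day 10 did not overlap day 0. The log2 change was -0.77 ± 0.19 on day 8 (limma adjusted p = 0.00812), a call that was lost against day 4 (-0.24, limma adjusted p = 0.391), and -1.31 ± 0.19 on day 10 (limma adjusted p = 1.12e-04), which held against day 4 (-0.78). Beside it, the oligodendrocyte markers Mag, Mog and Sox10 averaged under 1 FPKM on every day. Mbp averaged under 1 FPKM on days 0 and 4 and not on days 8 and 10. Of 5 markers of this list tested on day 10, 3 were higher and 2 lower (27.7 and 16.0% of all genes). Olig1, a transcription factor of that lineage, was among the lower ones, at 10.8 FPKM on day 10 against 25.8 FPKM on day 0 (-1.22 ± 0.08, limma adjusted p = 9.97e-08). Olig2 (19.5 FPKM on day 10 and 15.2 FPKM on day 0) and Cnp (17.9 FPKM on day 10 and 13.4 FPKM on day 0) were higher. The part of such cells in the change of Tubb4a was not tested.

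Tubb3, the class used as a marker of neurons, passed the test on day 8 and not on day 4 or day 10. It was at 38.8, 46.7 and 49.9 FPKM on day 0 and 44.9, 43.7 and 38.8 FPKM on day 4. Day 8 libraries, at 67.1, 64.8 and 61.7 FPKM, lay above all of these, and day 10 libraries stood at 48.7, 50.2 and 49.9 FPKM. The change on day 8 was 0.52 ± 0.09 (limma adjusted p = 8.03e-04), and day 10 was lower than day 8 by -0.38 ± 0.09 (limma adjusted p = 0.0233). On day 10 against day 0 the change was 0.14, with a 95% interval of -0.05 to 0.34 (limma adjusted p = 0.227). Among 14 neuronal markers, Map2, Dcx, Rbfox3, Elavl4, Snap25 and Syt1 averaged under 1 FPKM on all whole cell days. The summed level of the list was 225 to 245 FPKM on day 8 and 244 to 262 FPKM on day 10, against 152 to 157 FPKM on day 0, and Stmn2 alone averaged 134 FPKM on day 8 and 137 FPKM on day 10, against 106 FPKM on day 0. Of 11 markers tested, 6 were higher and 1 lower on day 8 (20.2 and 9.62% of all genes), and 6 were higher and 3 lower on day 10 (27.7 and 16.0% of all genes). Nefl (1.70) and Nefm (1.90) were among the higher ones on day 10, and Elavl3 (-1.57) and Gap43 (-0.97) among the lower ones. Their part in the change of Tubb3 was not tested.

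Tubb5 and Tubb4b, the isotypes of dividing cells, made up most beta-tubulin mRNA, holding the first places among the beta genes on every day. Tubb5 was at 718, 739 and 829 FPKM on day 0 and at 750, 775 and 799 FPKM on day 10, overlapping ranges with a log2 change of 0.03 (95% interval -0.13 to 0.18, limma adjusted p = 0.800). Its sign on days 8 and 10 turned to -0.08 and -0.09 after median-of-ratios scaling. Tubb4b was at 486, 480 and 489 FPKM on day 10, all above 390, 385 and 420 FPKM on day 0. The change of 0.28 ± 0.07 (limma adjusted p = 0.00588) fell to 0.17 after median-of-ratios scaling and no longer passed (limma adjusted p = 0.167).

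**Figure D2:**
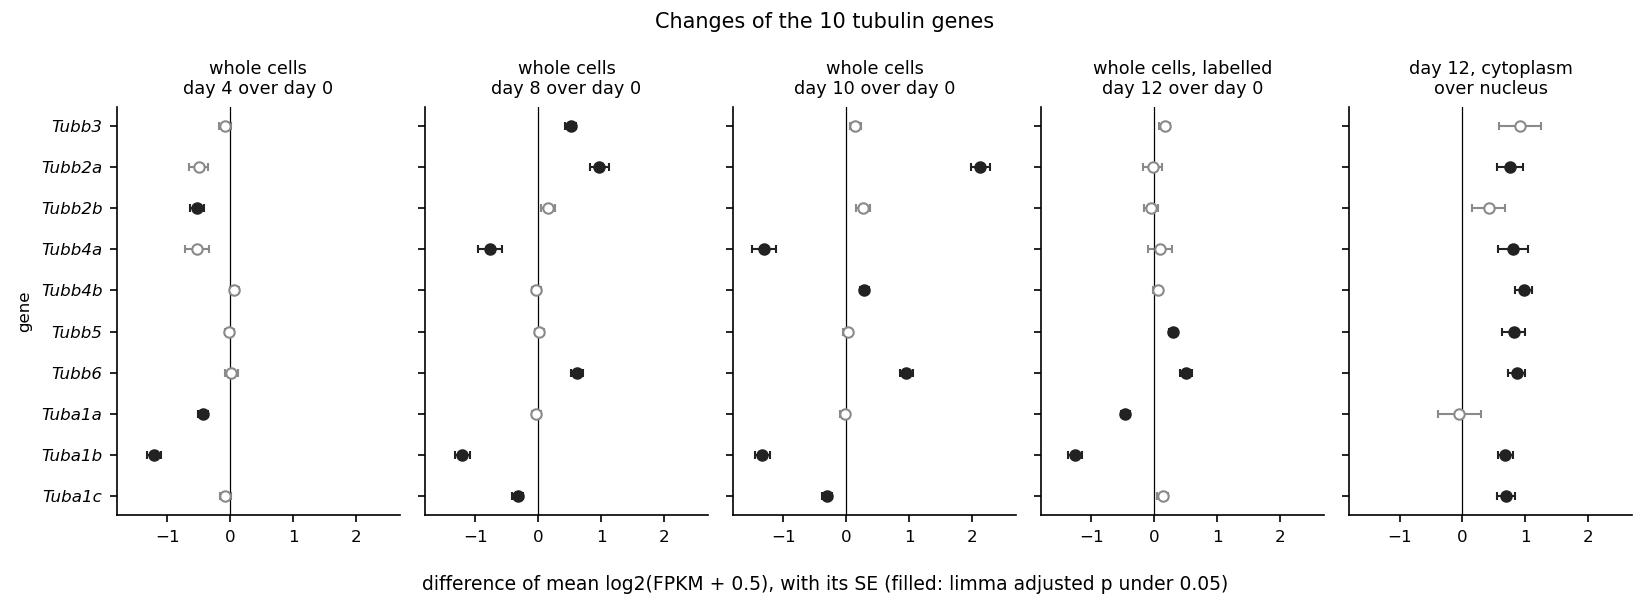
Difference of mean log2(FPKM + 0.5) with its SE for each tubulin gene, for whole cells of each day over day 0 and for cytoplasm over nucleus on day 12; filled points passed the limma test at an adjusted p under 0.05. Tubb2a reaches 2.13 on day 10, Tuba1b lies between -1.33 and -1.21 on every day after day 0, and 7 of 10 points are filled in the fraction panel.

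The 3 alpha genes differed from each other. Tuba1b had the lowest log2 change of any member on days 4, 8 and 10: it was at 459, 447 and 497 FPKM on day 0 and at 221, 215 and 171 FPKM on day 4. It then stayed at 222, 171 and 216 FPKM on day 8 and 172, 203 and 181 FPKM on day 10, so every later library lay below every day 0 library. The log2 changes were -1.21 ± 0.12 on day 4 (limma adjusted p = 1.82e-05), -1.21 ± 0.12 on day 8 (limma adjusted p = 8.51e-06) and -1.33 ± 0.12 on day 10 (limma adjusted p = 1.59e-06). From day 4 on there was no further call, with 0.00 on day 8 and -0.12 on day 10 (limma adjusted p = 1.00 and 0.436).

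The high Tuba1b level was seen in the whole cell libraries of day 0 and in no other group. Cytoplasm of the same day held 113, 122 and 117 FPKM and nucleus 61.1, 64.3 and 56.8 FPKM, so whole cells stood 1.99 above the higher fraction on the log2 scale, at the 99.8th percentile of 12585 genes of at least 2 FPKM. Tuba1a stood 0.98 above (99.1st percentile), and 110 genes, 0.874%, stood 1 or more above. Gapdh was among them, with 798 FPKM in whole cells and 50.1 FPKM in cytoplasm of day 0, as were Actg1 (671 FPKM in whole cells and 241 in cytoplasm) and Dynlt1b (91.8 FPKM in whole cells and 10.0 in cytoplasm). Processed pseudogenes that share windows with the alpha genes went in different directions, which was not tested. Gm14150, with the most windows shared with Tuba1b among the copies that have values (523), was at 3.84 to 5.22 FPKM in whole cells on later days against 7.47 FPKM on day 0, the direction of Tuba1b. Gm5620 was at 7.06 to 16.3 FPKM on later days against 1.18 FPKM on day 0, and Gm17383 at 3.37 to 5.01 FPKM against 0.302 FPKM. Gm6682 was at 2.30 to 3.26 FPKM on later days against 2.14 FPKM on day 0. Tubb4b-ps1, a copy of Tubb4b, was at 1.48 to 1.85 FPKM on later days against 0.0522 FPKM on day 0. Those libraries were also the deepest of the study, and the part of read assignment or depth in the change of Tuba1b was not tested. In cytoplasm Tuba1b was at 110 ± 5.40 FPKM on day 12 and 117.5 ± 4.50 FPKM on day 0 (SD, n = 3).

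**Figure D3:**
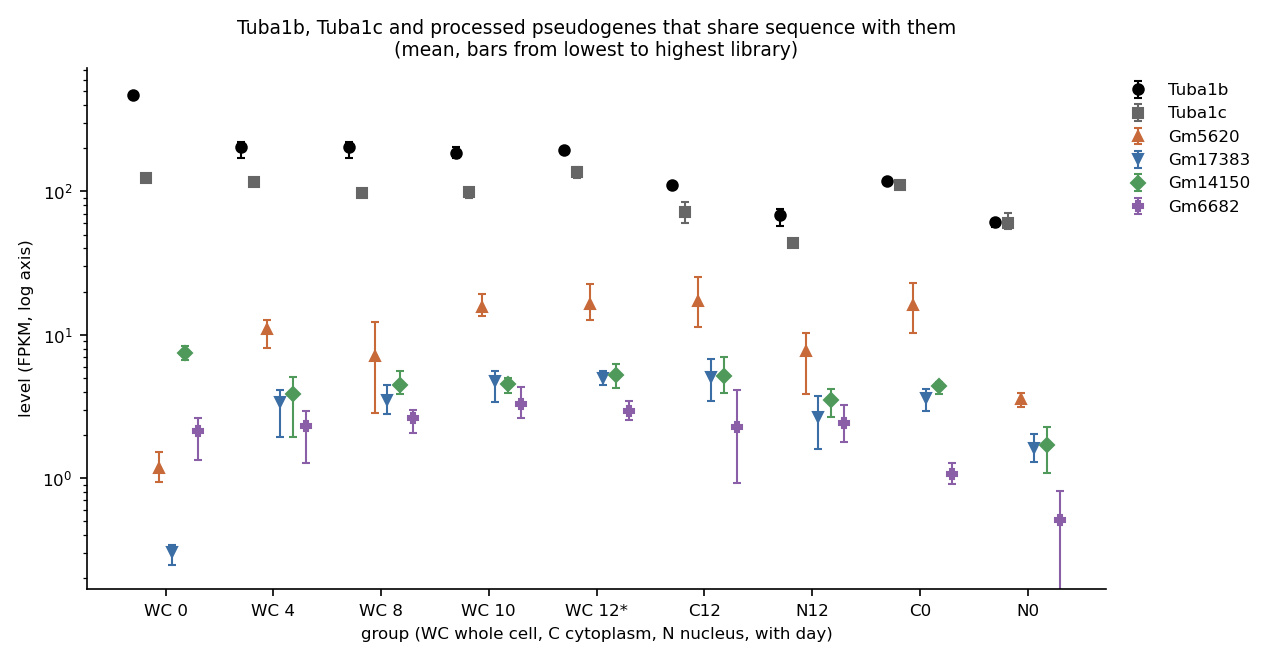
FPKM on a log axis of Tuba1b, Tuba1c and the processed pseudogenes Gm5620, Gm17383, Gm14150 and Gm6682 in all 9 groups; points are means of 3 libraries and bars run from the lowest to the highest library, off the axis where a library is at 0; the asterisk marks the libraries labelled day 12. In whole cells on day 0 Tuba1b (467 FPKM) and Gm14150 (7.47 FPKM) are at their highest, and Gm5620 (1.18 FPKM) and Gm17383 (0.302 FPKM) at their lowest.

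Tuba1a, the alpha isotype of developing neurons, was lower on day 4 and had no call against day 0 on days 8 and 10. It was at 256, 249 and 293 FPKM on day 4, all below the 357, 368 and 350 FPKM of day 0, a change of -0.43 ± 0.08 (limma adjusted p = 0.00267) that did not pass in a fit of both groups alone (0.143). On days 8 and 10 it averaged 352 FPKM on both, with changes of -0.03 and -0.03 against day 0 (95% interval on day 10 of -0.19 to 0.14) and of 0.40 and 0.41 against day 4 (limma adjusted p = 0.00281 and 0.00108). Tuba1c was lower on days 8 and 10, at 98.1 ± 4.43 and 99.5 ± 8.23 FPKM against 123 ± 4.81 FPKM on day 0 (SD, n = 3). The changes were -0.33 ± 0.08 (limma adjusted p = 0.00966) and -0.31 ± 0.08 (limma adjusted p = 0.00896), and the day 10 call was lost after quantile normalization (adjusted p = 0.0537 in limma). Summed, the 3 alpha genes came to 586 ± 5.84, 653 ± 24.3 and 636 ± 11.5 FPKM on days 4, 8 and 10, against 949 ± 21.7 FPKM on day 0. The 7 beta genes came to 1406 ± 40.3, 1540 ± 22.7 and 1707 ± 39.5 FPKM on those days, against 1450 ± 101 FPKM on day 0.

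Because the alpha changes from day 0 rest on those day 0 whole cell libraries, each later day was also set against day 4, a choice made after the data were seen. On day 8, 5 members were higher than on day 4 (Tubb3, Tubb2a, Tubb2b, Tubb6 and Tuba1a), against 13.2% of all genes, and 1 was lower (Tuba1c), against 6.72%. On day 10, 5 were higher (Tubb2a, Tubb2b, Tubb4b, Tubb6 and Tuba1a; 23.3% of all genes) and 2 were lower (Tubb4a and Tuba1c; 14.2% of all genes). Tubb2a was 2.63 ± 0.15 above day 4 on day 10 (limma adjusted p = 1.25e-07). The rise of Tubb2a and Tubb6 was thus present against either day, and the fall of Tuba1b only against day 0.

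The libraries labelled day 12 resembled day 0 in Dicer1 and also in several tubulins. Tubb2a was at 16.8, 14.1 and 12.5 FPKM in them and Tubb4a at 5.09, 6.28 and 5.21 FPKM, ranges that overlap those of day 0. The log2 changes were -0.03 (95% interval -0.36 to 0.30, limma adjusted p = 0.938) and 0.09 (95% interval -0.32 to 0.51, limma adjusted p = 0.800). In all, 2 members were higher than on day 0 (Tubb6 and Tubb5; 10.2% of all genes) and 2 were lower (Tuba1b and Tuba1a; 3.34% of all genes). Of the genes called in them 75.4% were higher with FPKM as deposited, 56.1% after median-of-ratios scaling and 44.9% after quantile normalization. Tubb6 was at 115 ± 7.79 FPKM against 81.4 ± 9.57 FPKM on day 0 (0.50 ± 0.10, limma adjusted p = 0.00447), a call lost after quantile normalization (limma adjusted p = 0.0628). Tubb5 was at 936 ± 35.0 FPKM against 762 ± 59.1 FPKM (0.30 ± 0.07, limma adjusted p = 0.0141), a call lost under 5 of 15 alternatives, among them without day 0 replicate 1 or 2 (limma adjusted p = 0.0613 and 0.0711) and without labelled day 12 replicate 2 (0.0647). Tuba1b (-1.26 ± 0.12, limma adjusted p = 1.10e-05) and Tuba1a (-0.46 ± 0.08, limma adjusted p = 0.00131) were lower than on day 0. Against day 4 their changes were -0.05 (95% interval -0.30 to 0.21) and -0.03 (95% interval -0.19 to 0.14). The day 12 cytoplasm, by contrast, held Tubb2a at 75.1 FPKM and Dicer1 at 3.06 FPKM.

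Shares of the summed FPKM within a family do not depend on a library's scaling. Tubb5 held 52.5 ± 0.443% of the beta-tubulin FPKM in whole cells on day 0, 53.5 ± 1.05% on day 4, 50.0 ± 1.10% on day 8 and 45.4 ± 0.552% on day 10 (SD, n = 3). Tubb2a held 1.01, 0.738, 1.89 and 3.86% on those days, and Tubb6 5.61, 5.86, 8.13 and 9.24%. Tubb4b kept 25.3 to 29.6% and Tubb2b 7.08 to 10.4%. Among the alpha genes Tuba1b held 49.2 ± 1.61% on day 0 and 34.6, 31.1 and 29.1% on days 4, 8 and 10, while Tuba1a held 37.8, 45.4, 53.9 and 55.3%. These day 0 shares rest on the whole cell libraries with Tuba1b at 467 FPKM. Tuba1a itself averaged 358 FPKM on day 0 and 352 FPKM on day 10. In cytoplasm and nucleus of day 0 Tuba1b held 28.7 and 24.2%, and Tuba1a 44.3 and 51.8%. The part of read assignment in the alpha shares was not tested. In the day 12 fractions Tubb2a reached 5.31 ± 0.639% in cytoplasm and 5.44 ± 0.169% in nucleus, against 0.930 ± 0.0715% and 1.09 ± 0.394% in those fractions on day 0.

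**Figure D4:**
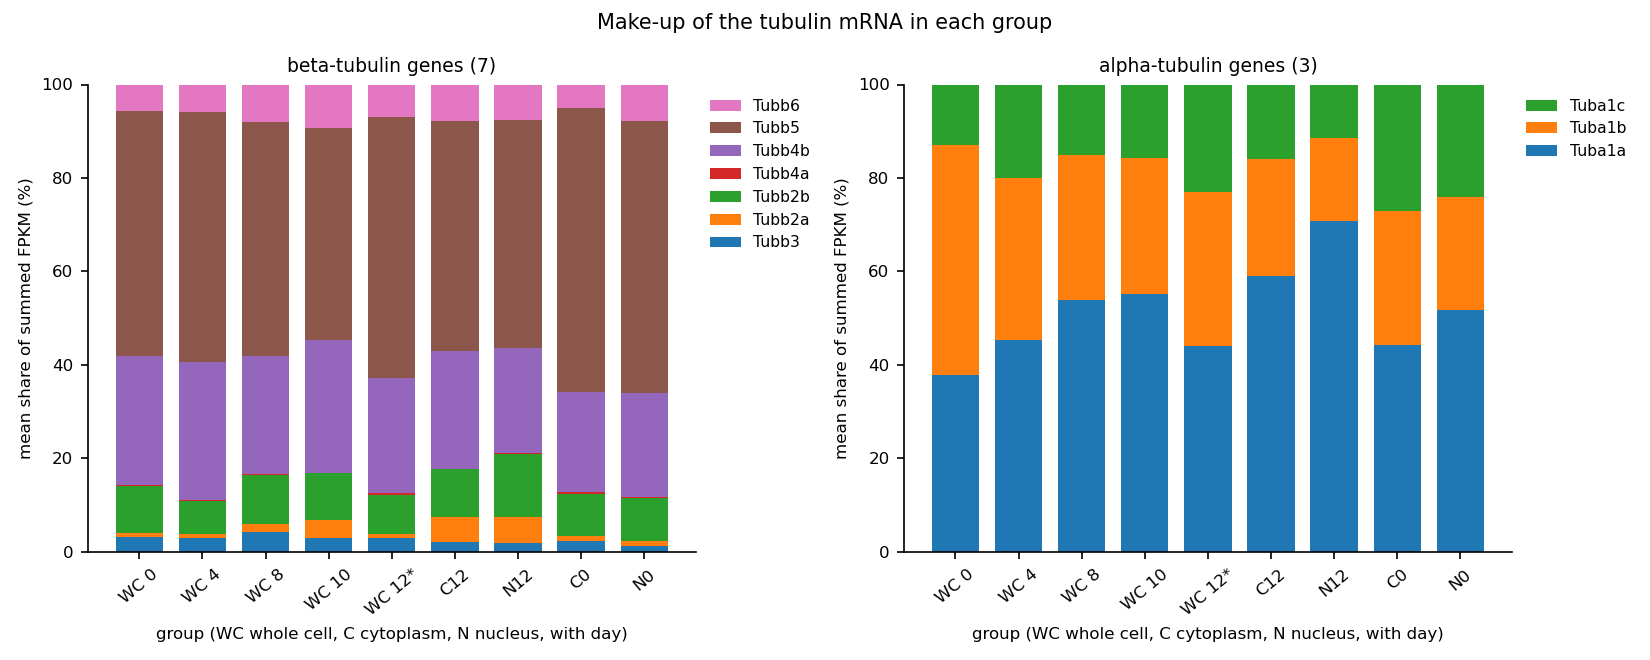
Mean share (percent, n = 3) of each gene in the summed FPKM of the 7 beta-tubulin genes (left) and the 3 alpha-tubulin genes (right), in whole cells (WC) by labelled day and in cytoplasm (C) and nucleus (N) on days 12 and 0. Tubb5 takes 45.4 to 60.8% of the beta total in every group, and Tuba1b takes 49.2% of the alpha total in whole cells on day 0 and 17.8 to 34.6% elsewhere.

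Fractions were compared within a day, where FPKM is relative to each library's own total and so does not give the split of molecules between compartments. On day 0, the contrast on which the genes were chosen, all 10 members had a positive log2 difference of cytoplasm minus nucleus. The median was 0.88, beside -0.12 over all genes, and the range 0.28 to 1.91. Tubb3 held 34.1, 36.4 and 33.6 FPKM in cytoplasm and 12.2, 12.6 and 4.41 FPKM in nucleus, the 4.41 FPKM being replicate 3, the library that stands apart. Its difference was 1.91 with that library and 1.45 without it. Tuba1a was at 185, 179 and 179 FPKM in cytoplasm and 195, 176 and 63.8 FPKM in nucleus, and its difference of 0.48 became -0.03 without that library. For the 9 other members every cytoplasmic library lay above every nuclear one, on the contrast that chose the family. The share of all genes that separate in this way is not given here. Tubb6 had the smallest difference of means among these members (0.28, and 0.12 without replicate 3). Its lowest cytoplasmic library was at 69.92 FPKM and its highest nuclear library at 69.89 FPKM. The members made up 0.484 to 0.502% of the summed FPKM in cytoplasm and 0.206 to 0.321% in nucleus.

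Day 12 fractions are libraries that the choice did not use, and there 7 of 10 members were higher in cytoplasm than in nucleus, against 15.7% of all genes, and none was lower, against 18.4% of all genes. The median of the members was 0.78, beside -0.06 over all genes. With FPKM as deposited 45.9% of all genes called were higher in cytoplasm, and 60.4% after quantile normalization. Tubb4b was at 349, 349 and 373 FPKM in cytoplasm and 167, 186 and 191 FPKM in nucleus (0.98 ± 0.14, limma adjusted p = 4.85e-04). Tubb6 was at 103, 108 and 115 FPKM in cytoplasm and 62.4, 58.8 and 57.4 FPKM in nucleus (0.86 ± 0.14, limma adjusted p = 8.61e-04). Both groups were clear of each other for these genes, as they were for Tubb5, at 694 ± 13.3 FPKM in cytoplasm and 400 ± 86.8 FPKM in nucleus (0.82 ± 0.18, limma adjusted p = 0.00620). Tuba1b (0.69 ± 0.12, limma adjusted p = 0.00139), Tuba1c (0.69 ± 0.14, limma adjusted p = 0.00330), Tubb2a (0.76 ± 0.21, limma adjusted p = 0.0164) and Tubb4a (0.81 ± 0.25, limma adjusted p = 0.0269) passed too. The Tubb2a call was lost without cytoplasm day 12 replicate 2 or 3 (limma adjusted p = 0.0535 and 0.0677) and after quantile normalization (0.0532). That of Tubb4a was lost when any of 5 of its 6 libraries was left out (limma adjusted p = 0.0562 to 0.088). Summed, the 3 alpha genes gave 0.21 between the fractions (limma adjusted p = 0.492), and Tubb2a with Tubb2b gave 0.52 (limma adjusted p = 0.096).

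The remaining 3 members did not pass on day 12. Tubb3 was at 29.7, 30.3 and 31.4 FPKM in cytoplasm and 11.1, 19.2 and 19.0 FPKM in nucleus, with no overlap. Its difference of 0.91 ± 0.33 missed the threshold (limma adjusted p = 0.0546), and with both nuclear libraries that stand apart left out it was 0.66 and passed (limma adjusted p = 7.94e-06). Tuba1a was at 265, 258 and 265 FPKM in cytoplasm and 223, 296 and 302 FPKM in nucleus, which overlap (-0.05, 95% interval -0.80 to 0.70, limma adjusted p = 0.933). Without those nuclear libraries Tuba1a was lower in cytoplasm (-0.19, limma adjusted p = 0.0178), and 9 members were called in all, 8 of them higher, where 60.0% of all genes were called, 26.8% higher and 33.2% lower. Tubb2b was at 144 ± 12.4 FPKM in cytoplasm and 115 ± 46.4 FPKM in nucleus (0.42 ± 0.26, limma adjusted p = 0.244), and at 0.02 without them.

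**Figure D5:**
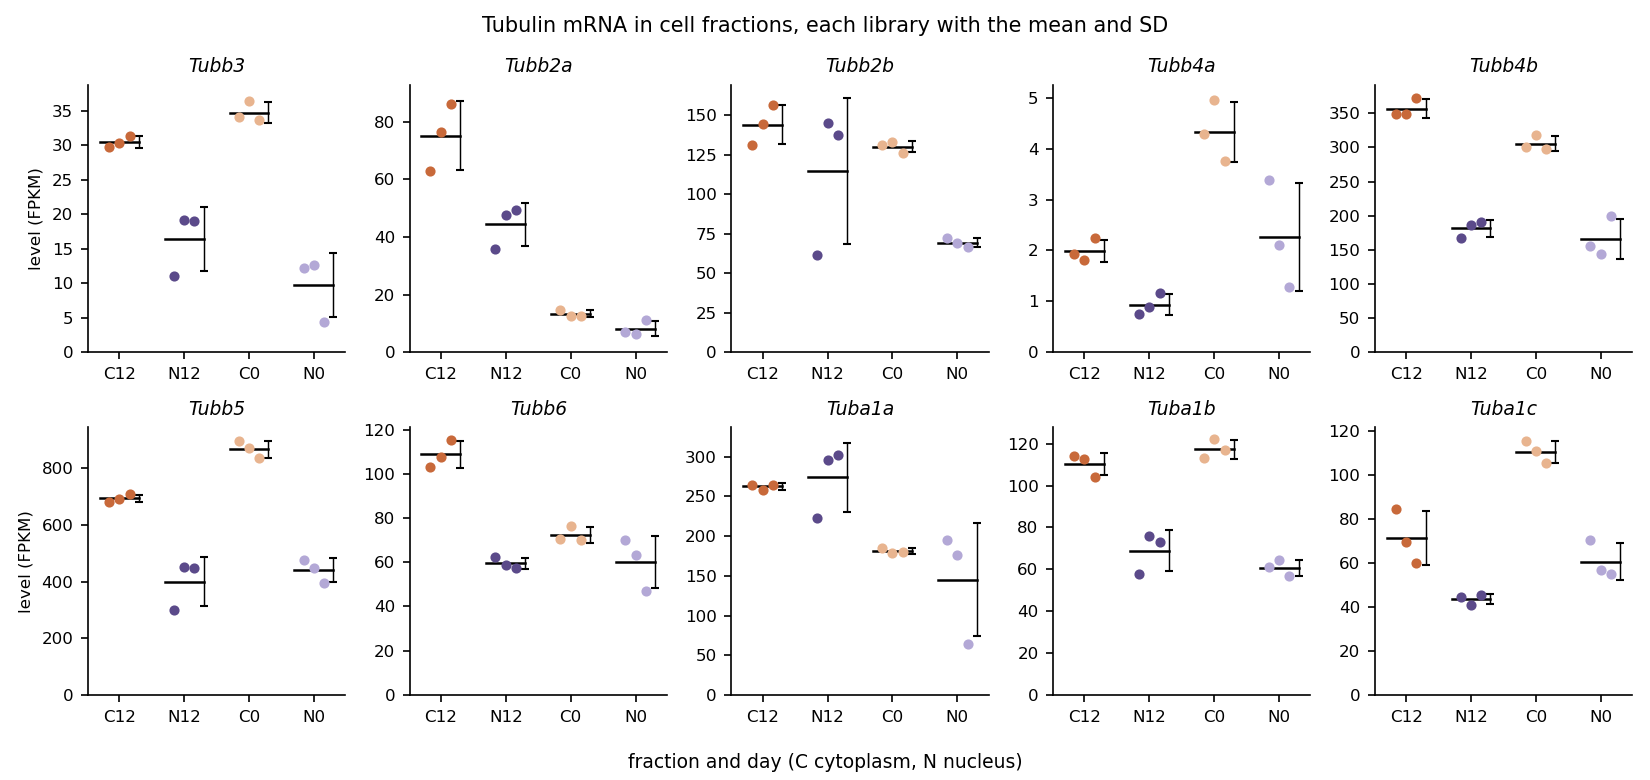
FPKM of each tubulin gene (one panel each, linear axis from 0) in cytoplasm and nucleus on day 12 (C12, N12) and day 0 (C0, N0); dots are the 3 libraries, lines their mean and bars the SD. Tubb2a stands higher on day 12 in both fractions (75.1 and 44.3 FPKM) than on day 0 (13.3 and 8.18 FPKM), and Tuba1a is the gene whose fractions overlap on both days.

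Within a fraction, day 12 was set against day 0 for the 9 members other than Tubb3, whose day 0 values had led the choice. The family as a whole was also selected on these day 0 fractions. The p-values and calls of the 9 members against day 0 are therefore not independent of that choice. In cytoplasm, 2 of 9 were higher (Tubb2a and Tubb6; 16.0% of all genes) and 2 were lower (Tubb4a and Tuba1c; 16.6% of all genes). In nucleus, 2 of 9 were higher (Tubb2a and Tuba1a; 15.1% of all genes) and 2 were lower (Tubb4a and Tuba1c; 21.6% of all genes). Tubb2a was at 62.7, 76.5 and 86.2 FPKM in cytoplasm on day 12 against 14.7, 12.7 and 12.5 FPKM on day 0 (2.45 ± 0.21, limma adjusted p = 1.69e-05). In nucleus Tubb2a was at 35.7, 47.8 and 49.5 FPKM on day 12 against 6.93, 6.39 and 11.2 FPKM on day 0 (2.40 ± 0.21, limma adjusted p = 2.86e-05). Day 12 lay above day 0 without overlap in both fractions. Summed with Tubb2b, the cytoplasmic change of Tubb2a was 0.60 and did not pass (limma adjusted p = 0.0610).

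Tubb4a went down in both fractions, with 2.00 ± 0.217 FPKM in cytoplasm on day 12 against 4.33 ± 0.595 FPKM on day 0 (-0.95 ± 0.25, limma adjusted p = 0.0128). In nucleus it was at 0.933 ± 0.211 FPKM on day 12 against 2.26 ± 1.06 FPKM on day 0 (-0.88 ± 0.25, limma adjusted p = 0.0177), a call lost in a fit of both groups alone (0.112). Without cytoplasm day 0 replicate 2 the cytoplasmic call was lost (limma adjusted p = 0.0534). Tuba1c was at 71.4 ± 12.2 FPKM in cytoplasm on day 12 against 111 ± 4.94 FPKM on day 0 (-0.64 ± 0.14, limma adjusted p = 0.00490). In nucleus it was at 43.6 ± 2.36 FPKM on day 12 against 60.6 ± 8.43 FPKM on day 0 (-0.46 ± 0.14, limma adjusted p = 0.0242), lost without nucleus day 0 replicate 1 or day 12 replicate 2 (0.0858 and 0.0719), after quantile normalization (0.0845) and in a fit of both groups alone (0.108). Summed, the 3 alpha genes gave 0.12 in cytoplasm and 0.58 in nucleus, neither past the test. Tubb6 was higher in cytoplasm on day 12 (0.59 ± 0.14, limma adjusted p = 0.00751), and in nucleus it was at 59.5 FPKM against 60.0 FPKM on day 0 (0.01, 95% interval -0.30 to 0.31). The difference between these fraction changes was not tested. Tuba1a averaged 274 FPKM in nucleus on day 12 against 145 FPKM on day 0 (1.06 ± 0.34, limma adjusted p = 0.0322), and the call was lost without nucleus day 12 replicate 2 or 3 (limma adjusted p = 0.0808 and 0.0897) and in a fit of both groups alone (0.157). Without both nuclear libraries that stand apart, 7 of 9 members were called in cytoplasm, where 59.5% of all genes were, with 4 higher (28.2% of all genes) and 3 lower (31.2% of all genes). In nucleus 7 of 9 were called, where 56.5% of all genes were, with 5 higher (24.7% of all genes) and 2 lower (31.8% of all genes). Tubb4b, Tubb5 and Tuba1a were added in cytoplasm and Tubb2b, Tubb4b and Tuba1b in nucleus.

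Other genes of the tubulin system were read beside the family as lists. Of 10 further tubulins, 6 were tested in whole cells, and on day 10 none was higher (27.7% of all genes) and 3 were lower (16.0% of all genes): Tube1 (-0.53), Tubg1 (-0.48) and Tuba4a (-0.42). Tubg1, the gamma-tubulin that nucleates microtubules, was at 31.0 FPKM on day 10 against 43.7 FPKM on day 0 (limma adjusted p = 1.71e-04), and Tuba4a at 37.8 against 50.7 FPKM. On day 12 Tuba4a was higher in cytoplasm than in nucleus, at 22.4 and 10.4 FPKM (1.07 ± 0.10, limma adjusted p = 4.80e-05). Of 8 genes of the gamma-tubulin ring complex, 1 was lower on day 10 (16.0% of all genes), Mzt2, at 7.70 FPKM against 19.5 FPKM on day 0.

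Tubulin needs chaperones to fold, and 23 genes of prefoldin, the CCT chaperonin, the tubulin cofactors and the autoregulation machinery were counted. On day 10, 3 were higher and 11 were lower than on day 0, with a median of -0.20 beside 0.09 over all genes, of which 27.7% were higher and 16.0% lower. The named lower genes were the prefoldin subunits Pfdn6 (48.4 FPKM on day 10 and 101 FPKM on day 0), Pfdn4 and Vbp1, and the higher ones Tbcc, Pfdn1 and Scaper. On day 8 the counts were 2 higher and 1 lower (20.2 and 9.62% of all genes), and on day 4 they were 2 higher and 0 lower (4.88 and 1.82% of all genes). In the day 12 fractions, 11 of 23 were higher in cytoplasm (15.7% of all genes) and 1, the cofactor Tbce, was lower (18.4% of all genes). Cct6a (1.25), Cct7 (1.03) and Cct8 (0.99), subunits of the chaperonin, had the largest differences among those higher.

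Of 18 tested genes for enzymes that modify tubulin, 3 were higher and 3 lower on day 10, beside 27.7 and 16.0% of all genes. Ttll6, a polyglutamylase, was at 5.35 FPKM on day 10 against 1.80 FPKM on day 0, and the alpha-tubulin acetyltransferase gene Atat1 was at 2.34 against 3.71 FPKM. In the day 12 fractions 1 enzyme gene was higher in cytoplasm and 6 were lower (15.7 and 18.4% of all genes), among them Ttll6 (7.83 FPKM in cytoplasm and 42.6 FPKM in nucleus) and Atat1 (2.56 FPKM in cytoplasm and 8.78 FPKM in nucleus). Of 25 genes of microtubule-associated and plus-end proteins, 10 were higher and 1 lower on day 10, against 27.7 and 16.0% of all genes, with a median of 0.24 beside 0.09 over all genes. Stmn3 (1.11) and Mapt (1.04), which bind free dimer and the microtubule wall, were among the higher ones, and Stmn4 (-1.13) was the lower one. Of 11 spindle kinesins, 2 were higher on day 10 (27.7% of all genes), Kif23 (0.87) and Kifc1 (0.45).

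Summed markers of other cell types also rose, but lay above day 0 by day 4, when Tubb2a and Tubb6 were not called. On day 4 the fibroblast sum was 185 to 256.5 FPKM, the trophoblast sum 262 to 297 FPKM and the endoderm sum 22.7 to 32.1 FPKM. Fibroblast markers summed to 836 to 858 FPKM on day 10 and 128 to 156 FPKM on day 0. On day 10 the sum was led by Vim (519 FPKM on day 10 and 82.0 on day 0) and Acta2 (174 FPKM on day 10 and 19.1 on day 0). Col1a2, Col3a1, Postn and Lum averaged under 1 FPKM on both days. Of 7 tested on day 10, 5 were higher and 1 was lower (27.7 and 16.0% of all genes). The lower one was Thy1, at 1.82 FPKM against 7.62 FPKM on day 0. Trophoblast markers summed to 518 to 554 FPKM on day 10 and 147 to 196 FPKM on day 0, led by Krt8 and Krt18, with Elf5 under 1 FPKM. Of 8 tested on day 10, 6 were higher and 1 was lower (27.7 and 16.0% of all genes). The lower one was Tfap2c, at 17.0 FPKM on day 10 against 23.4 FPKM on day 0. Endoderm markers summed to 39.4 to 41.8 FPKM on day 10 and 12.2 to 13.8 FPKM on day 0. The sum was led by the collagen genes Col4a1 (23.5 FPKM on day 10 and 6.93 on day 0) and Col4a2 (13.3 and 3.59 FPKM). Gata6, Dab2, Sox17, Foxa2, Sox7 and Afp averaged under 1 FPKM on both days. Of 7 tested on day 10, 3 were higher and 0 lower (27.7 and 16.0% of all genes). In the libraries labelled day 12 the fibroblast sum was 227 to 265 FPKM, the trophoblast sum 365 to 408 FPKM and the endoderm sum 9.08 to 9.73 FPKM, so the first 2 lay above day 0 and the third below it. The part of these genes in the tubulin changes was not tested.

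The genes whose pattern over the 9 group means was most like that of Tubb3 were Ttll12 (Pearson r = 0.98), Prpf19, Twf2, Fscn1 and L3mbtl2, among 11271 genes compared. For Tubb2a, the member with the widest range over days 0 to 10 (2.60 on the log2 scale), they were Krt17 (r = 0.99), Ebp, Fam222b, Ngfr and Jup. Between members, Tubb3 and Tubb4b had the highest correlation (r = 0.94) and Tubb2a and Tubb4a the lowest (r = -0.64). These values describe 9 means that share libraries, build and normalisation.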

How the data were processed

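The deposited values are FPKM per gene, 1 file a library. Per the submitters' processing notes, the authors used TopHat2 2.0.9, Cufflinks 1.3.0 and build mm9; the sources used here do not give the annotation, the handling of strand or the treatment of reads that match several places. Per the labels, libraries were poly(A)-selected, directional and paired-end with 100-base reads. Identifiers of 122 lincRNA models differ in letter case in the files labelled whole cell day 12 and were joined without regard to case.

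Differences were tested on log2(FPKM + 0.5) with limma 3.58.1 (R 4.3.3; eBayes with trend) in a fit of 15 whole cell libraries and one of 12 fraction libraries, keeping genes whose mean reached 0.5 FPKM in any group (15991 and 17124 genes). The p-values were adjusted by Benjamini-Hochberg over all genes of the fit, with a threshold of 0.05. Changes of low genes come out too small on this scale. The code was tested on simulated data. Isotype shares are given without a test, since an exact permutation of 3 against 3 libraries cannot go below p = 0.1. Replicates are separate by label, with nothing said of separate cultures, so the p-values reflect spread between libraries, which may be technical. Depth is unknown beyond the relative values given, and no interval covers counting error.

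All 10 members are named; of each list, up to 3 higher and 3 lower genes of largest change that reach 2 FPKM are named for whole cell day 10 and the day 12 fractions. Marker genes, genes of the most alike pattern (5 each) and pseudogene copies are named beside them; Gapdh, Actg1 and Dynlt1b were chosen after their values were seen. The members and lists were chosen with earlier results of these data known. Gene loci, coding starts and shared windows come from GENCODE M21 on GRCm38, which is not the authors' build. Alternatives were other pseudocounts (0.1 and 1), filters, scalings, a replicate block, fits of only 2 groups, each library left out in turn and near-identical copies summed. Another 3 (the libraries labelled day 12 left out, day 4 in place of day 0, and both nuclear libraries that stand apart left out) were chosen after seeing the data. The summed level of the oligodendrocyte marker list is not reported here.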

Additional observations from a re-analysis of the deposited data

Results flagged for a closer look

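The Tubb3 change of day 12 against day 0 pointed one way in cytoplasm and the other in nucleus. Every cytoplasmic library was lower on day 12 (29.7, 30.3 and 31.4 FPKM) than on day 0 (34.1, 36.4 and 33.6 FPKM), a log2 change of -0.18, while the nuclear change was 0.82 (11.1, 19.2 and 19.0 FPKM on day 12 against 12.2, 12.6 and 4.41 FPKM on day 0). The cytoplasmic change less the nuclear one was -1.00 on the log2 scale. This difference was not tested, because Tubb3 was chosen on its day 0 fractions, and the nuclear change was 0.35 without nucleus day 0 replicate 3.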

How the results depend on the processing

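Of 34 calls on single members in 7 comparisons, 12 held under all alternatives run. In whole cells they were Tuba1b on day 4, Tubb3, Tubb6 and Tuba1c on day 8, and Tubb2a, Tubb4a and Tubb6 on day 10. The others were Tubb4b, Tubb5 and Tubb6 between the day 12 fractions, and, against day 0, Tubb6 in cytoplasm and Tubb2a in nucleus. All calls against the day 0 fractions, here and among the 34, are not independent of the choice of the family on those fractions. Day 4 in place of day 0 could not be run for Tuba1b on day 4, and that setting ended the Tuba1b calls on days 8, 10 and labelled 12. Over all members and alternatives, 994 log2 changes kept their direction and side of the threshold, 38 no longer passed, 30 newly passed and 42 changed sign; the causes were not tested unless a value below shows one. Depth limits Tubb4a most, at 5.53 FPKM or less in every group.

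A fit of the 2 compared groups alone, with fewer samples, gave 1 member and 438 genes on day 4 (main 3 and 1071), 3793 genes for the libraries labelled day 12 (main 2170), 7 members and 9841 genes for cytoplasm of day 12 against day 0 (main 4 and 5574), and 1 member and 2112 genes for nucleus (main 4 and 6281). Leaving out both nuclear libraries that stand apart gave 10197 genes between the day 12 fractions (main 5837), 7 members and 10114 genes in cytoplasm, and 7 members and 9613 genes in nucleus, and Tubb6 in nucleus turned to -0.19. Leaving out 1 library at a time gave 735 to 1721 genes on day 4 (1721 without day 4 replicate 3), 1062 to 1669 genes for the libraries labelled day 12 (1062 without day 0 replicate 2, 1377 and 1380 without labelled day 12 replicates 3 and 2), and 2 to 6 members in nucleus (2 without day 12 replicate 2).

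Quantile normalization left 2 members called in the libraries labelled day 12 (main 4). It also turned Tubb5 (0.052) and Tubb6 (-0.0658) on day 4, Tubb4b (0.15) and Tuba1a (0.0949) on day 8, Tuba1a (0.15) on day 10 and nuclear Tubb5 (0.0095). Median-of-ratios scaling turned Tubb5 on days 8 and 10 (-0.0777 and -0.0883) and Tubb4b in the libraries labelled day 12 (-0.0048). Day 4 in place of day 0 turned Tuba1a on days 8 and 10 (0.40 and 0.41), Tuba1b on day 8 (0.0025) and, in the libraries labelled day 12, Tubb2a (0.47), Tubb2b (0.48) and Tubb4b (-0.0046). Summing the alpha genes turned Tuba1c in the libraries labelled day 12 (-0.68), Tuba1b and Tuba1c in cytoplasm (0.12), Tuba1c in nucleus (0.58) and Tuba1a between the day 12 fractions (0.21).

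Without single libraries, members near 0 changed sign within these ranges: Tuba1a between day 12 fractions -0.19 to 0.0306 and on day 8 -0.0657 to 0.0276, Tubb2a -0.14 to 0.0699 and Tubb2b -0.16 to 0.0268 in the libraries labelled day 12, Tubb4b on day 8 -0.0744 to 0.0065. Tubb5 ranged from -0.26 to 0.0386 in nucleus, -0.0584 to 0.0451 on day 4, -0.0255 to 0.078 on day 8 and -0.0154 to 0.0882 on day 10, and Tubb6 from -0.16 to 0.13 in nucleus and -0.062 to 0.11 on day 4.

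With the replicate number as a replicate block, the members called were 3, 6, 6 and 4 in whole cells on days 4, 8, 10 and labelled 12, 7 between the day 12 fractions, 4 in cytoplasm and 4 in nucleus, as without it, and all genes called were 932, 4412, 6699, 1917, 5523, 5264 and 5825. Deviations of same-numbered libraries had correlations of -0.358 to 0.267 over all comparisons, and of 0.151, 0.00836 and 0.153 between the day 12 fractions. With 3 libraries in a group, these values cannot settle whether the numbers pair libraries, and the labels do not say. Adding all annotated alpha genes made the rise of the Tuba1a share on day 10 15.6 points, and no other of 70 share values moved beyond the spread.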
